A study of Mus musculus with 12 samples.

Results

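The Snail, Twist and Zeb transcription factors, the paired-related homeobox factor Prrx1 and the cadherins Cdh2 and Cdh11 were followed through 12 mouse tumors. The 10 genes (Snai1, Snai2, Snai3, Twist1, Twist2, Zeb1, Zeb2, Prrx1, Cdh2 and Cdh11) were chosen by name, as factors of mesenchymal transition and 2 cadherins of mesenchymal cells. All 10 are among the 24060 gene rows measured, and all 10 are among the 15043 rows with at least 1 RPKM in at least 3 tumors. RPKM scales the fragments of a gene to its transcript length and to the tumor's sequencing depth. Levels can therefore be set side by side between genes and between tumors, as far as the length used and the scaling to depth hold.

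Every tumor arose in a P0-CreC;Smarcb1flox/flox mouse on the FVB/N background, the strain the study gives for all its mice. In these mice Cre recombinase from the P0-CreC transgene removes both copies of Smarcb1 in neural crest cells of the embryo and in the Schwann cell lineage. The tumors grew unprovoked, and no treatment of the profiled animals is given in the sources used here. To assess proliferation, the study gave bromodeoxyuridine before dissection, and its methods do not name the mice that received it. By their labelled location, 4 tumors were retro-orbital, 3 came from the cheek, 3 from the meninges, 1 from the vestibular nerve and 1 from the trigeminal nerve. Tumors are numbered within a location in the order of deposition. No normal tissue was analysed here, so every comparison is between tumors, and for the profiled tumors neither the age of each animal nor the number of animals is given in the sources used here. The first part of the identifier is shared by cheek 1 and meninges 1, by cheek 2 and cheek 3, and by retro-orbital 3 and trigeminal N 1, and whether these pairs came from the same animal is not stated. P-values therefore measure the spread between tumor samples. Each whole tumor also holds leukocytes, vessels and other host cells. In such bulk RNA, fewer cells of a type cannot be told apart from less RNA per cell.

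Mesenchymal transition is the change by which epithelial cells give up their junctions and polarity and become motile. Neural crest cells go through it when they leave the neural tube. The Snail and Zeb proteins are zinc finger repressors that bind E-boxes with the core CAGGTG, among others in the promoters of epithelial junction genes. The Twist proteins are basic helix-loop-helix factors that work as dimers with E proteins, and Prrx1 is a homeobox factor of mesenchyme, including that of the head. N-cadherin (Cdh2) and cadherin 11 (Cdh11) hold mesenchymal and neural crest derived cells together in place of E-cadherin (Cdh1).

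The fragment totals behind the values ran from 13206168 to 57128422 per tumor. At this depth the least expressed of the 10 genes with a value in every tumor, Snai3, stands on 4 to 184 fragments. Smarcb1 lay between 1.70 and 6.31 RPKM. Cheek 2 and cheek 3 were the most alike pair (r = 0.984 over all kept genes on the log2 scale). They differed by more than counting noise, with a chi-square of 17.67 per degree of freedom over 385 genes, so they are not copies of the same library. The test does not show whether they are pieces of the same tumor or come from the same animal. They entered as separate samples, and fits that keep 1 tumor per identifier start, or that treat the start as a random block, are given beside the results they change. Retro-orbital 1 stood apart in both cadherins.

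The order of the median levels over the 12 tumors was Cdh11 (137 RPKM), Twist1 (84.3 RPKM), Prrx1 (67.8 RPKM), Snai2 (27.3 RPKM), Zeb2 (14.1 RPKM), Zeb1 (13.4 RPKM), Cdh2 (6.07 RPKM), Snai1 (3.38 RPKM), Twist2 (0.659 RPKM) and Snai3 (0.528 RPKM). Most neighbours in this order changed places between tumors. Cdh11 was above Twist1 in 7 of 12 tumors, Twist1 above Prrx1 in 5, Snai2 above Zeb2 in 7, and Twist2 above Snai3 in 6. The least mixed step was Snai1 over Twist2, which held in 10 of 12 tumors. Among all kept genes, Prrx1 and Snai2 stood at percentile 98.45 and 98.07 for the spread of log2(RPKM + 1) over the tumors, so both are among the most variable genes. Snai1 was the least variable of the 10 genes, at percentile 73.37.

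**Figure D1:**
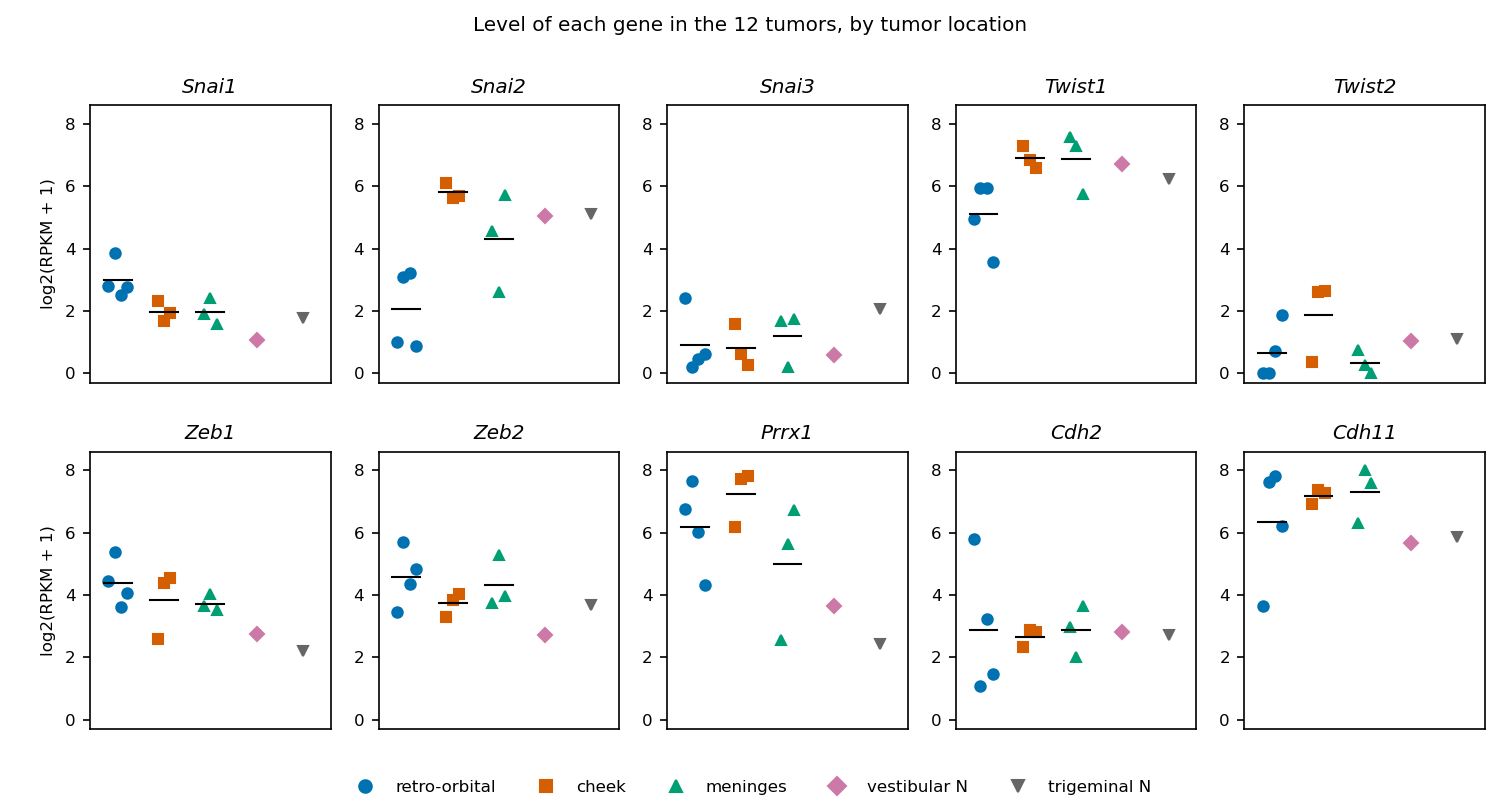
Level of each of the 10 genes in the 12 tumors as log2(RPKM + 1), 1 point per tumor, grouped and colored by location; black lines are the means of locations with 3 or 4 tumors. Snai2 runs from 0.844 RPKM in retro-orbital 4 to 68.0 RPKM in cheek 1, while Cdh2 is high only in retro-orbital 1.

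Snai1 encodes Snail, a repressor of Cdh1 that is degraded quickly in most cells. It was low in all tumors, at 5.98, 13.5, 4.72 and 5.84 RPKM in retro-orbital 1 to 4. The cheek tumors had 3.94, 2.22 and 2.82 RPKM and the meninges tumors 2.75, 4.29 and 1.98 RPKM. The vestibular and trigeminal tumors had 1.09 and 2.44 RPKM. Every retro-orbital tumor thus lay above every other tumor. The 250 bases before the Snai1 start are printed because they hold the E-box that Snail and Zeb proteins bind, in capitals (read here as CACCTG, the reverse complement of CAGGTG); the sequence is from RefSeq on GRCm38.p6, 5′ to 3′ on the gene's strand.
Snai1 (chr2:167537945-167538194, + strand): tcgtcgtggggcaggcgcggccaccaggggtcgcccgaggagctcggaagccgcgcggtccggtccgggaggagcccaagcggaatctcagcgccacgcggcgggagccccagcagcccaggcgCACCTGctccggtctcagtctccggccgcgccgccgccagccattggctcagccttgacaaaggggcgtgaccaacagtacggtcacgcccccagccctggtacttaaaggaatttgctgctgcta

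Snai2 encodes Slug, the family member long used to mark migrating neural crest. It spanned the widest range of the Snail family, with 1.01, 7.44, 8.31 and 0.844 RPKM in the retro-orbital tumors and 68.0, 48.3 and 50.5 RPKM in the cheek tumors. The meninges tumors were split, at 22.7, 5.05 and 51.4 RPKM, and the vestibular and trigeminal tumors had 31.9 and 33.8 RPKM. The 4 retro-orbital tumors and meninges 2 were the 5 lowest, and no retro-orbital value reached any cheek value. The highest level was 80.5 times the lowest.

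Snai3 encodes the least studied Snail protein. It was at 4.28, 0.150, 0.375 and 0.534 RPKM in the retro-orbital tumors, 1.998, 0.521 and 0.191 RPKM in the cheek tumors and 2.22, 0.144 and 2.33 RPKM in the meninges tumors. The vestibular tumor had 0.487 RPKM and the trigeminal tumor 3.21 RPKM. It reached 1 RPKM in 5 tumors from 4 locations, and the locations overlapped. The lowest values stand on 4 to 7 fragments.

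Within the family, Snai2 was higher than Snai1 in 9 of 12 tumors, by a mean of 1.84 ± 2.39 (SD, n = 12) on the log2(RPKM + 1) scale. The exact two-sided sign-flip test over the tumors gave p = 0.0264, adjusted p = 0.0316 over the 6 pairs of genes tested. The 3 tumors with more Snai1 than Snai2 were retro-orbital 1, 2 and 4. This call is a narrow one. The adjusted exact p was between 0.0527 and 0.0609 when any of cheek 1, cheek 2, cheek 3, meninges 1, meninges 3, vestibular N 1 or trigeminal N 1 was left out, and 0.169 with 1 tumor per first part of the identifier. Snai2 exceeded Snai3 in 11 of 12 tumors by 3.02 ± 1.97 (exact adjusted p = 0.00293, n = 12), retro-orbital 1 being the exception. Outside meninges 3 and the trigeminal tumor, Snai1 exceeded Snai3, in 10 of 12 tumors by 1.19 ± 1.18 (exact adjusted p = 0.00513, n = 12).

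Twist1 encodes the basic helix-loop-helix factor needed in cranial neural crest. It had 30.1, 60.1, 60.5 and 10.9 RPKM in the retro-orbital tumors, 156, 113 and 94.4 RPKM in the cheek tumors and 192, 156 and 53.3 RPKM in the meninges tumors. The vestibular and trigeminal tumors had 103 and 74.1 RPKM. Twist1 was thus above 10 RPKM in all 12 tumors, above at least 72.07% of all gene rows in each. Every cheek tumor exceeded every retro-orbital tumor, and meninges 3 fell inside the retro-orbital range.

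Twist2, its close relative in dermis and bone precursors, was 0 in retro-orbital 1, retro-orbital 2 and meninges 3. In those tumors 3 fragments would be worth 0.0844, 0.0778 and 0.128 RPKM, so levels under these were not detectable. The other retro-orbital tumors had 0.654 and 2.64 RPKM, the cheek tumors 0.269, 5.12 and 5.25 RPKM, meninges 1 and 2 had 0.665 and 0.203 RPKM, and the nerve tumors 1.05 and 1.12 RPKM. Only cheek 2 and cheek 3, the pair that shares an identifier start, were above 5 RPKM. Across the tumors Twist2 had r = 0.67 (Spearman's rho = 0.40, n = 12) with the mean of 6 skeletal muscle markers, whose summed level was 503 RPKM in cheek 2 and 274 RPKM in cheek 3 against 5.30 to 197 RPKM elsewhere. The part of muscle tissue in the Twist2 values was not tested. Twist1 exceeded Twist2 in all 12 tumors by 5.28 ± 1.51 on the log2(RPKM + 1) scale (exact adjusted p = 0.00293, n = 12).

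**Figure D2:**
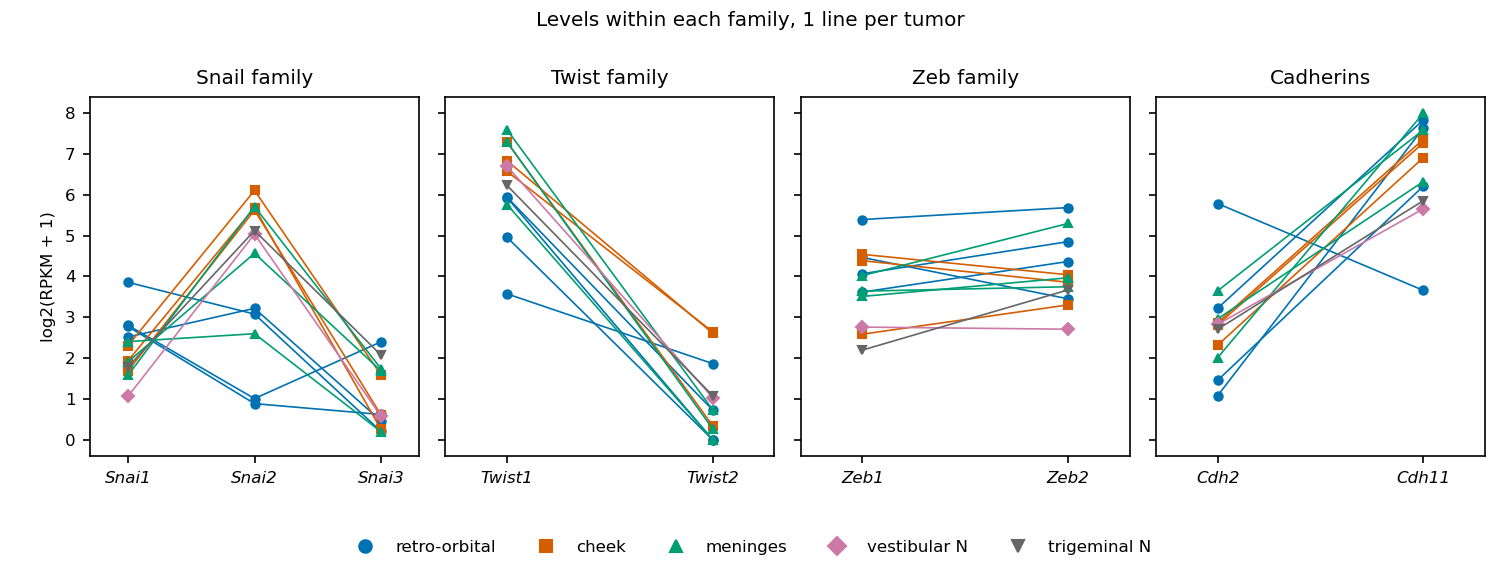
Levels within the Snail, Twist and Zeb families and of the 2 cadherins as log2(RPKM + 1), 1 line per tumor, colored by location. Twist1 lies above Twist2 in 12 of 12 tumors and Cdh11 above Cdh2 in 11 of 12, while the Zeb lines cross.

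Zeb1 encodes a zinc finger repressor of epithelial genes. Its retro-orbital levels were 21.1, 41.1, 11.3 and 15.8 RPKM, its cheek levels 5.001, 19.9 and 22.3 RPKM and its meninges levels 11.5, 15.2 and 10.4 RPKM. The vestibular and trigeminal tumors were low, at 5.77 and 3.58 RPKM. The 3 larger locations overlapped, and cheek 1 lay far from cheek 2 and 3. A noncoding transcript on the opposite strand, Gm10125, overlaps Zeb1, but its highest level was 0.857 RPKM.

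Zeb2 encodes the second Zeb repressor, which the neural crest and also macrophages express. It was at 9.95, 50.6, 19.6 and 27.9 RPKM in the retro-orbital tumors, 8.87, 13.5 and 15.5 RPKM in the cheek tumors and 12.4, 38.4 and 14.6 RPKM in the meninges tumors. The nerve tumors had 5.53 and 11.7 RPKM. Retro-orbital 2 and meninges 2 were the highest. Both are also high in leukocyte markers, since the summed level of 8 such markers (Ptprc, Cd68, Aif1, Csf1r, Itgam, C1qa, C1qb and Cd3e) was 1884 RPKM in retro-orbital 2, 1446 RPKM in meninges 2 and 410 RPKM in the vestibular tumor, where Zeb2 was lowest. Over the 12 tumors Zeb2 had r = 0.85 (Spearman's rho = 0.72) with the mean of these markers, and Zeb1 r = 0.41 (rho = 0.28). The genes most like Zeb2 were Pik3cg (r = 0.96), Nfam1 (r = 0.96) and Card9 (r = 0.95). All 3 are best known from immune cells. The part of leukocytes in the Zeb2 values was not tested. The antisense transcript Zeb2os, at 1.45 to 9.75 RPKM, had r = 0.86 with Zeb2, and the strand setting of the counting is not given in the sources used here, so the split of reads between this pair is uncertain.

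The 2 Zeb genes stood close together. Zeb2 was higher in 8 of 12 tumors, by a mean of 0.31 ± 0.75 on the log2(RPKM + 1) scale (exact p = 0.174, adjusted p = 0.174, n = 12). The differences ran from -1.01 in retro-orbital 1 to 1.47, so a difference in level between the 2 genes was not larger than the spread over tumors.

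Prrx1, a homeobox factor that marks limb and craniofacial mesenchyme, ranged from 4.36 RPKM in the trigeminal tumor to 225 RPKM in cheek 3. The retro-orbital tumors had 107, 200, 63.6 and 19.1 RPKM, the cheek tumors 72.03, 211 and 225 RPKM, the meninges tumors 4.90, 49.1 and 106 RPKM and the vestibular tumor 11.6 RPKM. The cheek values were high and the nerve values low, and the retro-orbital and meninges ranges both overlapped that of the cheek. Of the 3 genes most like Prrx1 over the 12 tumors, Gorab (r = 0.94) and Kifap3 (r = 0.87) are its neighbours on chromosome 1, and Wisp1 (r = 0.92) is not. Prrx1 lies at chr1:163245119-163313710 (GENCODE M21, GRCm38, minus strand). Gorab starts 71 kb away (chr1:163384908-163403669) and Kifap3 466 kb away (chr1:163779583-163917109). Gorab went from 6.36 RPKM in meninges 1 to 99.5 RPKM in cheek 2, and Kifap3 from 20.8 to 82.7 RPKM. The likeness did not extend over the whole region. Of 21 kept genes within 1000000 bases of Prrx1, 2 had r above 0.5, a share close to the 6.94% over all kept genes with a position. The median r was 0.00 near Prrx1 against -0.19 over all these genes. This window was looked at after the likeness had been seen.

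**Figure D3:**
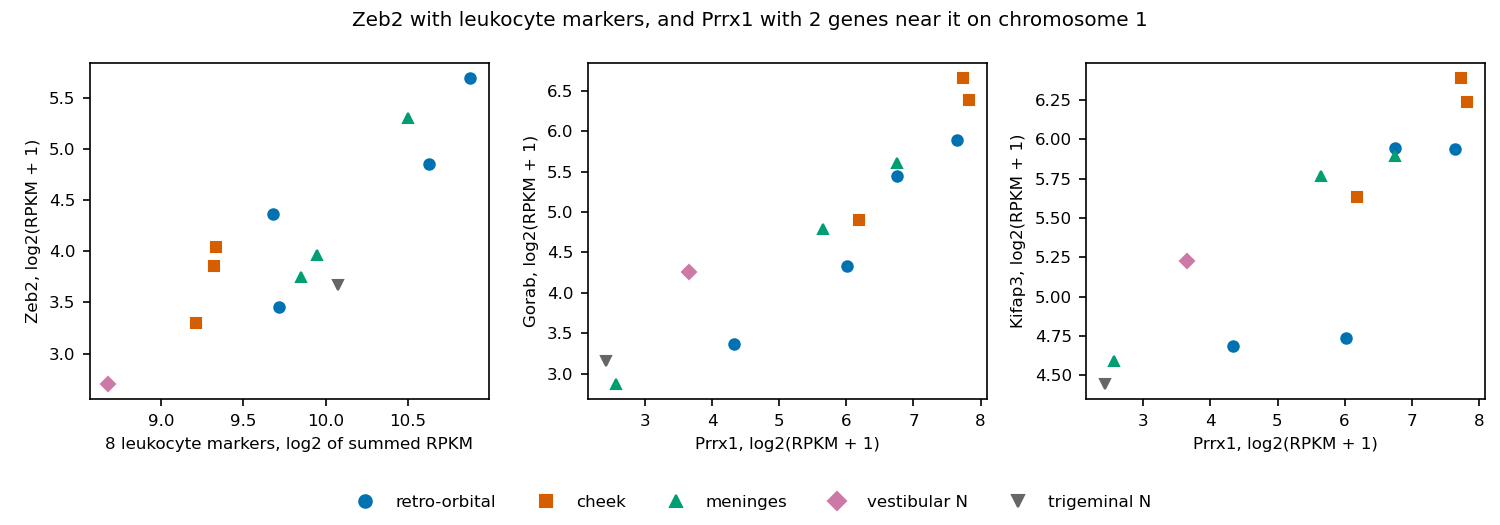
Left, Zeb2 as log2(RPKM + 1) against the log2 of the summed RPKM of 8 leukocyte markers; middle and right, Gorab and Kifap3 against Prrx1, all as log2(RPKM + 1), 1 point per tumor colored by location. Zeb2 follows the leukocyte markers (r = 0.85 with their mean log level), and Gorab follows Prrx1 more closely (r = 0.94) than Kifap3 does (r = 0.87).

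Cdh2 encodes N-cadherin, the cadherin that replaces E-cadherin in mesenchymal transition. It was 54.2, 1.11, 8.33 and 1.74 RPKM in the retro-orbital tumors, 3.99, 6.31 and 6.05 RPKM in the cheek tumors, 6.79, 3.03 and 11.5 RPKM in the meninges tumors and 6.10 and 5.53 RPKM in the nerve tumors. Retro-orbital 1 was far above the next tumor, meninges 3. Cdh11, the cadherin of osteoblasts and of mesenchyme in general, was 11.6, 198, 227 and 73.1 RPKM in the retro-orbital tumors, 119, 163 and 154 RPKM in the cheek tumors, 79.2, 255 and 192 RPKM in the meninges tumors and 49.5 and 57.0 RPKM in the nerve tumors. Its lowest value was in the tumor with the highest Cdh2. Cdh11 exceeded Cdh2 in the other 11 tumors, by a mean of 3.88 ± 2.18 over all 12 (exact adjusted p = 0.00293, n = 12).

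Other cadherins and catenins were read beside these. Cdh1 was 0.535 RPKM in retro-orbital 1 and 84.9 RPKM in retro-orbital 3, with a median of 18.7 RPKM that is above the median of Cdh2. Cdh13, a cadherin without a cytoplasmic tail, reached 304 RPKM in retro-orbital 2 against a median of 7.56 RPKM, and Cdh3, P-cadherin, 57.6 RPKM in meninges 2 against a median of 1.66 RPKM. Of the 12 other cadherins listed, Cdh15 was at 0 in 2 tumors. Beta-catenin (Ctnnb1) was abundant, at 129 to 481 RPKM, and highest in retro-orbital 1.

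Location was tested over the 10 tumors of the 3 larger locations, leaving out the vestibular and trigeminal tumors, with limma on log2(RPKM + 1) and Benjamini-Hochberg adjustment over 14745 genes. None of the 10 genes passed an adjusted p of 0.05, where 6 genes (0.0407%) passed in the F test over the 3 locations. The pairwise contrasts called 0.0271% of genes between cheek and retro-orbital tumors, 0.0203% between meninges and retro-orbital tumors and 0.0475% between meninges and cheek tumors, and none of the 10 genes in any. At an unadjusted p under 0.05 the F test held 2110 genes (14.3%), among them Snai1, Snai2 and Twist1. Snai2 had the largest contrast of the 10 genes, 3.76 (SE 0.79) higher in cheek than in retro-orbital tumors on the log2(RPKM + 1) scale (limma adjusted p = 0.185), and 2.24 (SE 0.79) higher in meninges than in retro-orbital tumors (limma adjusted p = 0.503). Twist1 was 1.80 (SE 0.62) higher in cheek and 1.78 (SE 0.62) higher in meninges than in retro-orbital tumors (limma adjusted p = 0.321 and 0.493). Snai1 went the other way, 1.01 (SE 0.36) higher in retro-orbital than in cheek tumors (log2 difference -1.01, limma adjusted p = 0.324).

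With the identifier start as a random block, an alternative chosen after seeing the data, the calls between meninges and cheek tumors changed. In that fit 4243 genes (28.8%) passed between these 2 locations, and 3 of the 10 genes did, a share close to that of all genes. Prrx1 was lower in meninges tumors (log2 difference -3.40, SE 0.46, limma adjusted p = 0.000954; -2.26, SE 1.10, without the block), as was Snai2 (-1.54, SE 0.37, limma adjusted p = 0.0127; -1.51, SE 0.85, without the block). Zeb1 was higher in meninges tumors (0.91, SE 0.25, limma adjusted p = 0.0232) but had a difference of -0.11 (SE 0.56) without the block. The contrast then leans on cheek 1 and meninges 1, which alone share a start across 2 of the 3 locations, and the correlation within a start, 0.930, was estimated from 2 pairs of tumors. In the F test 2802 genes (19%) passed under the block, among them Prrx1 and Snai2 of the 10 genes. Against retro-orbital tumors none of the 10 genes passed under the block, where 0.0136% of genes did for cheek and 0.0203% for meninges tumors.

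Snai1, Snai2 and Twist1, the 3 genes with an unadjusted p under 0.05 in the F test, each had locations that did not overlap. Snai1 was in every retro-orbital tumor above every cheek and meninges tumor, as were 93 genes (0.631%). Snai2 and Twist1 were in every cheek tumor above every retro-orbital tumor, as were 843 genes (5.72%), so 2 of 10 genes stand beside a background of that share. Summed markers of host cell types differed between the same tumors. Summed leukocyte markers were 594 to 647 RPKM in the cheek tumors and 822 to 1884 RPKM in the retro-orbital tumors, and 5 summed fibroblast markers (Dcn, Lum, Pdgfra, Col1a1 and Col1a2) were 1640 to 2141 RPKM and 618 to 1172 RPKM. The fibroblast sum does not stand for each of its markers, since Dcn (33.6 RPKM) and Lum (7.41 RPKM) were lowest of the 12 tumors in cheek 3. Col1a1 and Col1a2 are also among the 13 mesenchymal effectors, so the sum is no measure of host fibroblasts alone. The part of host cells in the differences of Snai2, Twist1 and Snai1 was not tested. None of these leukocyte and fibroblast markers was at 0 in any tumor. Over the 12 tumors Snai2 had r = -0.63 (rho = -0.57) and Snai1 r = 0.66 (rho = 0.48) with the mean of the leukocyte markers. Of 13 mesenchymal effectors, only Col3a1, a fibrillar collagen, passed in a contrast, 2.19 (SE 0.27) higher in cheek than in retro-orbital tumors (limma adjusted p = 0.0441). The E protein partners and Id inhibitors of the Twist proteins (7 genes), corepressors and turnover factors (10), the TGF-beta pathway (8), the epithelial list (16) and the other cadherins and catenins (14 tested of 17) had no gene past the threshold by location.

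The relation of the 8 factors with the cadherins was read from slopes fitted over all 12 tumors, with limma and adjustment over 15042 genes. With Cdh2 as the predictor, 0 genes (0%) passed, and 635 genes had an unadjusted p under 0.05. With Cdh11, 0 genes (0%) passed, and 691 had an unadjusted p under 0.05. Permutation tests of Pearson's r and of Spearman's rho over all genes also called 0 genes for either cadherin. No factor therefore had a slope on Cdh2 or Cdh11 past the threshold. Their errors were wide. The slope of Snai2 on Cdh11 was 0.52 with a SE of 0.39, and the slope of Prrx1 on Cdh11 was 0.55 with a SE of 0.41.

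Before adjustment, Snai3 had a positive slope on Cdh2 (0.44, SE 0.16) and a negative slope on Cdh11 (-0.42, SE 0.15), and Zeb2 had the opposite pair (-0.41, SE 0.17, and 0.38, SE 0.17). For Snai3 and Cdh2 r was 0.65 (permutation p = 0.0131, adjusted p = 0.999) and rho 0.52 (permutation p = 0.0847, adjusted p = 1). Without the 2 tumors farthest from the median of Cdh2, retro-orbital 1 and retro-orbital 2, r was 0.30, so the size of r leans on them. The slope stayed between 0.40 and 0.46 without each tumor in turn. It was between 0.35 and 0.69 in the other alternative fits, the one without these 2 tumors included, and passed in none. For Zeb2 and Cdh11 r was 0.55 (permutation p = 0.0636, adjusted p = 0.976), rho was 0.73 (permutation p = 0.00843, adjusted p = 0.805), and r was 0.44 without retro-orbital 1 and vestibular N 1. Snai3 and Cdh11 had r = -0.65 (permutation p = 0.0169, adjusted p = 0.976), rho = -0.67 (permutation p = 0.0202, adjusted p = 0.805), and r = -0.62 without the same pair. Zeb2 and Cdh2 had r = -0.57 (permutation p = 0.054, adjusted p = 0.999), rho = -0.44 (permutation p = 0.152, adjusted p = 1), and r = -0.43 without retro-orbital 1 and 2. These are 4 of 16 relations between a factor and a cadherin, and none passed the adjustment over all genes.

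The cadherins themselves had a slope of -0.64 (SE 0.24) of Cdh11 on Cdh2 (limma unadjusted p = 0.0181, adjusted p = 0.999). For this pair r was -0.61 (permutation p = 0.0490, adjusted p = 0.999) while rho was -0.20 (permutation p = 0.540, adjusted p = 1). The relation rests on retro-orbital 1. Without that tumor the slope was -0.0048, and without retro-orbital 1 and 2 it turned to 0.30, with r = 0.22. For Prrx1 and Cdh11, r over all 12 tumors was 0.35 (permutation p = 0.271, adjusted p = 0.976) and rho 0.34 (permutation p = 0.278, adjusted p = 0.888). Without retro-orbital 1 and vestibular N 1, r was 0.77, and the slope of Prrx1 on Cdh11 in those 10 tumors did not pass either.

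**Figure D4:**
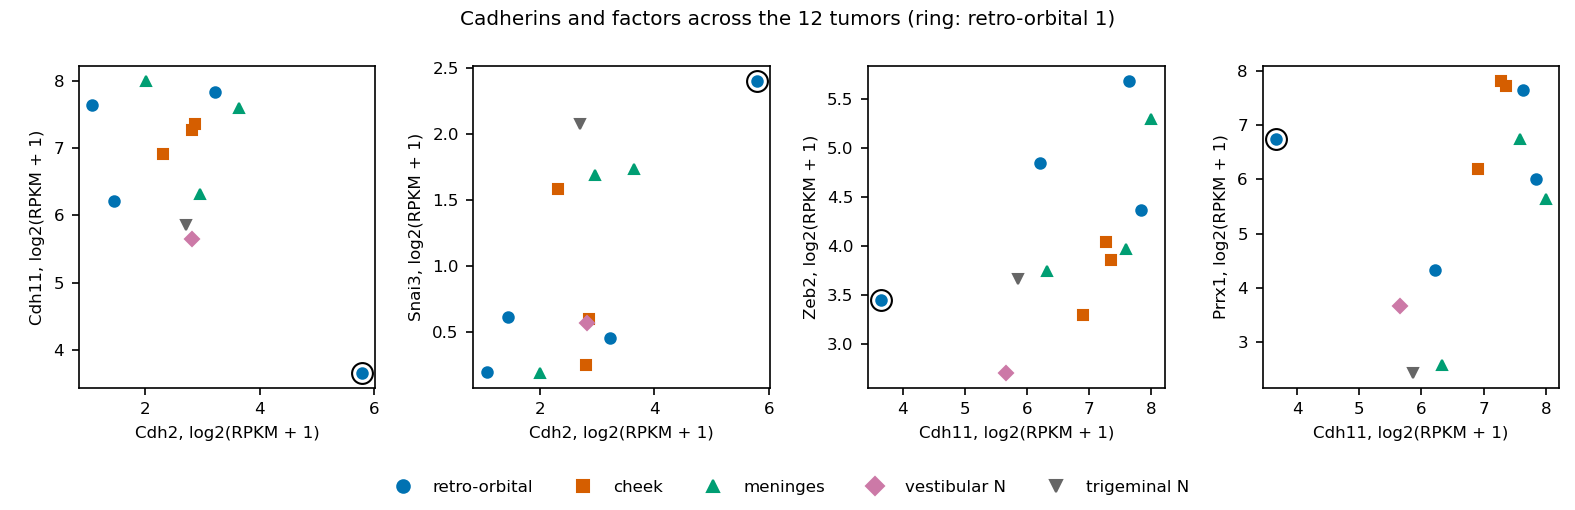
Cdh11 and Snai3 against Cdh2, and Zeb2 and Prrx1 against Cdh11, all as log2(RPKM + 1), 1 point per tumor colored by location and a ring around retro-orbital 1. The negative relation of the cadherins (r = -0.61 over 12 tumors) rests on the ringed tumor, and without retro-orbital 1 and 2 their r is 0.22.

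Relations among the factors were read the same way, from Snai2, Twist1 and Zeb1. With Snai2 as the predictor 2 genes (0.0133%) passed and none of the factors did. The 2 were Clmp, an adhesion molecule of the immunoglobulin class (slope 0.60, SE 0.07, limma adjusted p = 0.0378), and Prtg, protogenin, a receptor-like gene of the early neural tube and crest (slope 0.70, SE 0.09, limma adjusted p = 0.0388). Neither was called by permutation of r (adjusted p = 0.138 and 0.0903). The count was 0 without any of retro-orbital 2, 3 and 4, cheek 2, cheek 3 or meninges 1, 22 without retro-orbital 1, 5 without cheek 1, 4 without trigeminal N 1 or with the identifier start as a random block, and 1 without meninges 2 or meninges 3. Twist1 as the predictor called 0 genes (0%), with 526 at an unadjusted p under 0.05 and 0 by permutation. Snai2 and Twist1 had r = 0.67 (permutation p = 0.0143, adjusted p = 0.529) but rho = 0.36 (permutation p = 0.247, adjusted p = 0.861), and r fell to 0.09 without retro-orbital 1 and 4. Snai1 and Snai2 had r = -0.65 (permutation p = 0.020, adjusted p = 0.534) and rho = -0.67 (permutation p = 0.0204, adjusted p = 0.670). Their r was -0.63 without the same 2 tumors, while the slope of Snai1 on Snai2 went from -0.26 to -0.04 once location was a term.

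Of the 5 genes used as predictors, Zeb1 had the most genes past the threshold. The slope on Zeb1 passed for 259 of 15042 genes (1.72%), 176 negative (1.17%) and 83 positive (0.552%), and 3106 genes had an unadjusted p under 0.05. None of the other 9 genes passed. The closest were Prrx1 (slope 1.41, SE 0.44, limma adjusted p = 0.106), Zeb2 (0.60, SE 0.21, limma adjusted p = 0.134) and Snai1 (0.50, SE 0.19, limma adjusted p = 0.163). Zeb1 and Prrx1 had r = 0.67 (permutation p = 0.0178, adjusted p = 0.157), rho = 0.69 (permutation p = 0.0151, adjusted p = 0.129) and r = 0.45 without trigeminal N 1 and retro-orbital 2. The genes most like Zeb1 were Gprc5b (r = 0.93), Lix1l (r = 0.93) and Mapk3 (r = 0.90).

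The epithelial list holds genes that Zeb1 and Snail proteins are known to repress, activators of such genes, and antagonists of mesenchymal transition such as Ovol2. Whether Zeb1 acts on these genes or they act on Zeb1 was not tested. All 16 had a negative slope on Zeb1, where 63.6% of all genes had one, and the median slope was -1.09 against -0.08 over all genes. Past the threshold were 4 of 16, all negative, against 1.17% of all genes. None of the 16 passed without the filter on low values, with 1 tumor per identifier start, with the start as a random block, with the brain markers as a second covariate, by permutation of rho, or without any of cheek 1, 2 and 3, retro-orbital 2 or vestibular N 1. They were Epcam, the epithelial adhesion molecule (slope -2.28, SE 0.42, limma adjusted p = 0.0333), Esrp1, a splicing regulator of epithelia (-2.08, SE 0.35, limma adjusted p = 0.0312), Grhl2, an activator of junction genes (-2.01, SE 0.39, limma adjusted p = 0.0376), and Ovol2, a repressor of mesenchymal transition (-1.07, SE 0.18, limma adjusted p = 0.0312). Another 8 had an unadjusted p under 0.05, where 20.6% of all genes did. Among the 8 were Crb3, a polarity gene (-1.11, SE 0.26, limma adjusted p = 0.0522), and Cldn3, a tight junction gene (-1.88, SE 0.47, limma adjusted p = 0.0617). Cdh1 was not past the threshold (-1.17, SE 0.51, limma adjusted p = 0.214).

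The single values show the form of the relation. In retro-orbital 1 to 4 Ovol2 was 0.0241, 0, 2.45 and 0 RPKM, in the cheek tumors 5.11, 0.09997 and 0 RPKM, in the meninges tumors 2.85, 0.0992 and 2.53 RPKM and in the nerve tumors 4.71 and 3.60 RPKM. Grhl2 was 0.0448, 0.103, 9.15 and 0.0539 RPKM, then 28.4, 0.0930 and 0.566 RPKM, then 20.4, 0.146 and 20.9 RPKM, and 34.9 and 16.2 RPKM in the same order. Both genes fell into 2 clusters of 6 tumors with an empty range between them, 0.09997 to 2.45 RPKM for Ovol2 and 0.566 to 9.15 RPKM for Grhl2. The 6 tumors in the low cluster had 15.2 to 41.1 RPKM of Zeb1 and the 6 in the high cluster 3.58 to 11.5 RPKM, without overlap. Both genes were picked among those called with Zeb1, so this separation is no independent result. The share of all genes that separate the same 2 sets of tumors was not counted. The low cluster also holds both cheek 2 and cheek 3, which share an identifier start. Because of these clusters no pooled correlation is given for the 2 genes. Their slopes given above are pooled over both clusters and carry the same limit. Within the low cluster Zeb1 had r = -0.45 with Ovol2 (exact permutation p = 0.333, n = 6) and r = 0.07 with Grhl2 (exact permutation p = 0.838, n = 6). Within the high cluster r was -0.77 (exact permutation p = 0.0917, n = 6) and -0.38 (exact permutation p = 0.461, n = 6). In the low cluster Ovol2 was 0 in 3 tumors and at most 0.09997 RPKM, and Grhl2 was at most 0.566 RPKM. The r values of the low cluster thus rest on levels near 0 and cannot show whether a relation is there.

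Epcam was spread more evenly, at 40.1, 1.60, 171 and 17.3 RPKM in the retro-orbital tumors, 124, 10.6 and 9.19 RPKM in the cheek tumors, 57.2, 4.08 and 245 RPKM in the meninges tumors and 551 and 258 RPKM in the nerve tumors. Its r with Zeb1 was -0.84 (permutation p = 0.00064, adjusted p = 0.0542), its rho -0.85 (permutation p = 0.00074, adjusted p = 0.0628), and r was -0.77 without trigeminal N 1 and retro-orbital 2. Esrp1 ran from 0.0514 RPKM in retro-orbital 2 to 34.4 RPKM in the vestibular tumor, with r = -0.86 (permutation p = 1e-04, adjusted p = 0.0407), rho = -0.87 (permutation p = 0.00054, adjusted p = 0.0615) and r = -0.86 without the same 2 tumors. It was at most 2.38 RPKM (cheek 3) in the low cluster of Ovol2 and Grhl2 and at least 7.83 RPKM (meninges 1) in their high cluster. The r of Esrp1 is thus also pooled over these 2 sets of tumors.

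The 250 bases before the start of 3 of these genes are printed to show which of them carry the Zeb and Snail E-box (CAGGTG, or CACCTG on the other strand, in capitals). They are from RefSeq on GRCm38.p6, each on its gene's strand, and hold 2 E-boxes for Epcam, 3 for Crb3 and none for Ovol2.
Epcam (chr17:87635729-87635978, + strand): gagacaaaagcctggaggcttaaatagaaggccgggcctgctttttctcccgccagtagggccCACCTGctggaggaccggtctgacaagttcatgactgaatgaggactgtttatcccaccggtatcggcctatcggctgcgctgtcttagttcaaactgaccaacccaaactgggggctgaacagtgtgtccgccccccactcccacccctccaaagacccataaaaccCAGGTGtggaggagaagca
Crb3 (chr17:57061951-57062200, + strand): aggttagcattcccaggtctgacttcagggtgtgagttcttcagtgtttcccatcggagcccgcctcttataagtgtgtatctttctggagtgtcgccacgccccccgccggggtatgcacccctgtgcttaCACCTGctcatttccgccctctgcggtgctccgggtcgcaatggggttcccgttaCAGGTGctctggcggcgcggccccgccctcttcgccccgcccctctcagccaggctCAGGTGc
Ovol2 (chr2:144331363-144331612, - strand): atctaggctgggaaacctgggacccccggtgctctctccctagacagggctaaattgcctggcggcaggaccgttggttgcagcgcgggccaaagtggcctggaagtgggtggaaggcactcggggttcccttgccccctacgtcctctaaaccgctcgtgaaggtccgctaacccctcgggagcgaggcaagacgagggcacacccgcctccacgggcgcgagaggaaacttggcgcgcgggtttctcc

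Of the 16 epithelial genes, 11 had a promoter in the table used, and 7 of these had the motif in at least 1 of their windows (63.6%; 8 of 15 windows, 53.3%). Over all 32851 windows used the share was 17.2%. Among the tested genes with a promoter the motif was present for 18.5%, against 23.3% of the 133 genes with a negative slope on Zeb1 past the threshold and 8.47% of the 59 with a positive slope. The windows are the 250 bases before a start. Windows on chromosome 18, which carries Zeb1 and Cdh2, were left out of all these counts. The epithelial list was drawn up from known targets of Snail and Zeb proteins, activators of these targets and antagonists of mesenchymal transition. The 8 windows of the factors themselves, for Snai1, Twist1, Twist2, Zeb2 and Prrx1, held it in 1 window, that of Snai1. A match of these letters is a description and not a binding site.

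On the mesenchymal side, 1 of 13 effectors passed with Zeb1, with a positive slope, against 0.552% of all genes. Vim, the intermediate filament vimentin, had a slope of 1.16 (SE 0.26, limma adjusted p = 0.0475) and ran from 114 RPKM in the vestibular tumor to 3001 RPKM in retro-orbital 1. Fibronectin (Fn1) had a slope of 1.43 (SE 0.36, limma adjusted p = 0.0617). The median slope of the 13 was 0.36. No gene passed among the E protein partners and Id factors (0 of 7), the corepressors and turnover factors (0 of 10), the TGF-beta pathway (0 of 8) or the other cadherins and catenins (0 of 15 tested).

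The calls with Zeb1 depended on which tumors were fitted. The number of genes past the threshold was 0 without cheek 1, 2 without cheek 3 or vestibular N 1, 4 without cheek 2, 12 without retro-orbital 2, 108 without meninges 2, 129 without meninges 3 and 133 without retro-orbital 4. It was also 0 with 1 tumor per first part of the identifier, and 19 with that part as a random block, where 14 of the 16 epithelial slopes were negative and that of Epcam was -1.82 (limma adjusted p = 0.0774). Without each tumor in turn that of Epcam stayed between -2.55 and -2.10 and its adjusted p between 0.0324 and 0.0892, and that of Ovol2 between -1.25 and -1.02 with an adjusted p between 0.0291 and 0.0828. Within the 3 locations, with location as a term over 10 tumors, 161 genes passed and 1 of the 16.

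Markers of other cells were read against Zeb1 in the same fit, where 63.6% of all genes had a negative slope. Of 5 epithelial cell markers (Epcam, Krt5, Krt14, Cdh1 and Krt15) all 5 slopes were negative and 1 passed, Epcam, which is on both lists, and their summed level ran from 4.54 to 404 RPKM in the retro-orbital tumors, 58.9 to 361 RPKM in the cheek tumors, 22.6 to 431 RPKM in the meninges tumors and was 593 and 270 RPKM in the nerve tumors. Of 6 brain markers 5 had a negative slope (median -0.63), and none passed. With the mean of the brain markers as a second covariate, an alternative chosen after seeing the data, 0 genes passed with Zeb1, while the slope of Epcam was -2.13 (limma adjusted p = 0.131) and all 16 epithelial slopes were still negative. With the mean of the leukocyte markers as a second covariate 122 genes passed, 2 of the 16 among them. Of 6 skeletal muscle markers 5 had a positive slope (median 1.22) and none passed, and the part of muscle and of epithelial cells in these relations was not tested. Of 5 fibroblast markers 4 had a negative slope (median -0.40), and of 8 leukocyte markers 7 had a positive slope (median 0.32), none past the threshold. None of the 6 endothelial, 4 tested Schwann cell and 4 neuroectodermal progenitor markers passed with Zeb1. Sox10, a factor of the Schwann cell lineage, was low, at 0.0878 to 3.56 RPKM.

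**Figure D5:**
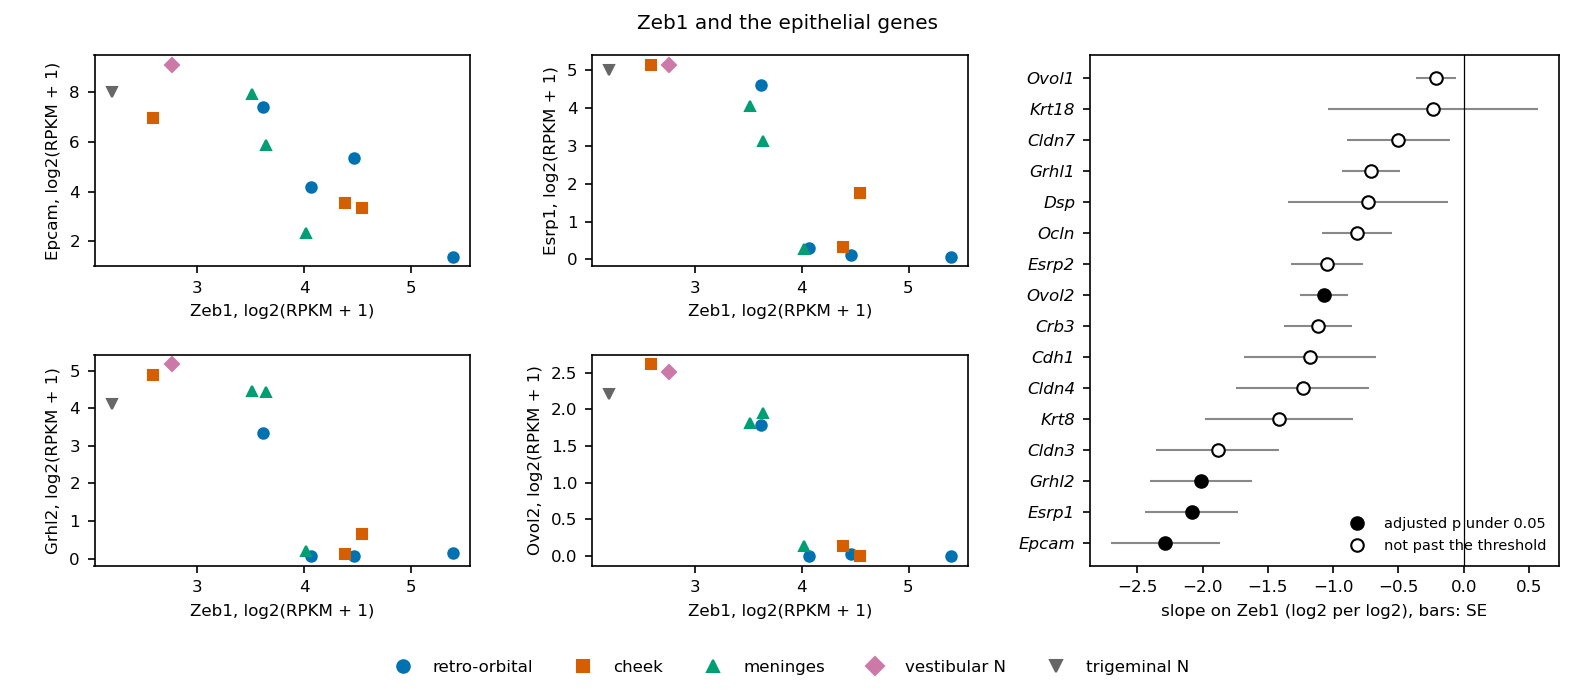
Left and middle, Epcam, Esrp1, Grhl2 and Ovol2 against Zeb1 as log2(RPKM + 1), 1 point per tumor colored by location; right, the slope of each of the 16 epithelial genes on Zeb1 with its SE, filled where the limma adjusted p was under 0.05. Grhl2 and Ovol2 fall into 2 clusters of 6 tumors, and all 16 slopes lie below 0, 4 of them past the threshold.

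The remaining members had these genes as their closest by r over the 12 tumors. Snai1 was most like Osbpl9 (r = 0.95), Lsp1 (r = 0.92) and She (r = 0.92), and Snai2 like Clmp (r = 0.92), Utrn (r = 0.92) and Prtg (r = 0.92). Twist1 was most like Bcl7a (r = 0.90), and Twist2 like Cfd (r = 0.92), Arid4a (r = 0.91) and Grp (r = 0.91). Cdh2 was most like Airn (r = 0.93), Mmp16 (r = 0.91) and Wnt5b (r = 0.90), and Cdh11 like Asb1 (r = 0.91), Tnfrsf1a (r = 0.88) and Tmem9b (r = 0.87). Snai3, low throughout, was most like Rps15a-ps4 (r = 0.89) and Vip (r = 0.87). These are the highest of 15043 values each. Without retro-orbital 1, r was 0.89, 0.86 and 0.72 for the 3 genes named with Cdh2 and 0.77, 0.80 and 0.74 for those named with Cdh11.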

How the data were processed

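RNA of 12 tumors had been depleted of ribosomal RNA and sequenced with a stranded kit, all samples in a single pool. The authors mapped the reads with STAR (build mm10), used unique alignments, assigned them to RefSeq genes with HTSeq and deposited 1 RPKM value per gene and tumor. The submitters' processing notes also name bcl2fastq 2.17, edgeR and limma, with no role. Low RPKM values of genes with 1 annotated length were read as whole multiples of the worth of a fragment, which gave each tumor's fragment total. Of these values, 50.96% to 58.31% per tumor were whole within a tolerance of 0.02 fragments, so the totals are estimates. A member's fragments are given at the smallest length that makes its 12 values whole. For none of the members is this length a transcript length of the annotation used here.

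The files hold RPKM, so no count test was used. Fits used limma 3.58.1 in R 4.3.3 on log2(RPKM + 1) with a trended robust prior, at least 1 RPKM in at least 3 fitted tumors and Benjamini-Hochberg adjustment at 0.05. This scale makes changes of low genes look smaller than they are. Slopes on a predictor were fitted for all genes over 12 tumors. The random block on the identifier start used limma's duplicateCorrelation. Permutation p-values of r and rho used 100000 resamples and were adjusted over all kept genes. They include the 35 relations among members. Sign-flip tests were exact, two-sided and adjusted over 6 pairs. The scripts were tested on simulated data. Named genes are the members, the pathway and marker lists and the 3 most alike genes of each member, without the 27 rows that carry a date as a name. Other names were chosen after their values were seen. The members and lists were chosen with earlier results of these data known. Correlations, motifs and figures were made in Python 3.11.15 (numpy 2.4.6; scipy 1.17.1; matplotlib 3.10.9).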

Additional observations from a re-analysis of the deposited data

Results flagged for a closer look

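In the 4 retro-orbital tumors, 3 genes had a value far from the other 3 tumors, by the gap to the nearest tumor as a share of the range of the 4, above Dixon's 95% critical value for 4 values. The share was 0.856 for Snai1, highest in retro-orbital 2 (13.5 RPKM), 0.907 for Snai3, highest in retro-orbital 1 (4.28 RPKM), and 0.864 for Cdh2, highest in retro-orbital 1 (54.2 RPKM). These shares are on the RPKM scale and not on the log2(RPKM + 1) scale of the fits. The log scale draws high values in, so the 3 shares are smaller there, and they were not tested on it. Chance marks about 1 in 20 such groups if values are normally distributed, which skewed RPKM values need not be. In all, 10 genes were looked at.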

How the results depend on the processing

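No member passed by location or with Cdh2, Cdh11, Snai2 or Twist1 under the alternatives run (pseudocount 0.1, no filter, quantile and equal-sum scaling, a constant prior, each tumor left out, 1 tumor per identifier start, the first 2 digits of the identifier as a term, and, for the slopes, location or leukocyte markers as a term, ranks, and the 2 farthest tumors left out), with 1 exception. With the identifier start as a random block (chosen after seeing the data), 2 members passed in the location F test and 3 between meninges and cheek tumors, as given above, and none with these 4 predictors. With Zeb1, 1 member passed once the first 2 digits were a term: Zeb2 (slope 0.73, limma adjusted p = 0.0364). Genes past the threshold with Zeb1, 259 as reported, numbered 4 without the filter, 0 with 1 tumor per identifier start, 465 with the first 2 digits as a term, 161 with location as a term, 122 with the leukocyte markers, 80 without the 2 farthest tumors, 0 with the brain markers, 19 with the random block, 109 by permutation of r and 40 by rho, and 0 to 285 without each tumor in turn. The epithelial genes among them, 4 as reported, numbered 0 without the filter, 0 with 1 tumor per identifier start, 1 with location, 2 with the leukocyte markers, 0 with the brain markers, 0 with the random block, 2 by permutation of r and 0 by rho, and 0 to 5 without each tumor in turn. Of the 16 epithelial slopes, 14 to 16 were negative in all of these, 14 with the random block. The slope of Cdh11 on Cdh2 turned to 0.30 without the 2 farthest tumors. All 5 called pairs within families kept their direction, and the Snai2 and Snai1 pair lost its call as given above. Quantile scaling moved the median of all genes by -0.11 between meninges and retro-orbital tumors and by -0.18 between meninges and cheek tumors. The labels carry no replicate numbers, so tumors were tied through their identifiers alone. The cause of these changes was not tested.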
